A study of Homo sapiens with 8 samples.

Results

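The genes of the condensin subunits, of topoisomerase II alpha and of the Ki-67 protein were examined for accessible chromatin in mitotic human cells with and without activity of the kinase Plk1. The set was chosen by name and holds 10 of the 19974 protein-coding genes analysed: SMC2 and SMC4 (the ATPase core of both condensins), NCAPH, NCAPD2 and NCAPG (condensin I), NCAPH2, NCAPD3 and NCAPG2 (condensin II), TOP2A and MKI67. The cells were hTERT RPE-1, a telomerase-immortalised line from human retinal pigment epithelium, of genotype Plk1-/- EGFP-Plk1as. All 8 libraries therefore lack the endogenous kinase and carry a GFP-tagged, analog-sensitive Plk1, which a bulky purine analog can block. Every culture was held in prometaphase with 5 µM STLC, an inhibitor of the spindle motor kinesin-5, for 16 h. Still in STLC, 4 cultures then received 0.5% DMSO and 4 received 10 µM 3MB-PP1, the inhibitor of the analog-sensitive kinase, for 2 h. The mitotic index exceeded 95%, and 50000 cells entered each ATAC-seq reaction, in which a transposase inserts adapters into open DNA. There was no library with wild-type Plk1 and 3MB-PP1, so effects of the compound on other targets cannot be told apart from those of Plk1 inhibition.

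Condensins are ring-shaped complexes that extrude loops of chromatin and give mitotic chromosomes their shape. Condensin II is nuclear and acts from prophase, whereas condensin I reaches the chromosomes after nuclear envelope breakdown. Topoisomerase II alpha passes DNA strands through each other and removes entanglements between sister chromatids, and Ki-67 coats the chromosome surface and keeps mitotic chromosomes apart. Many genes of this kind are most expressed toward G2 and mitosis. Their promoters often hold CCAAT boxes, the letters bound by NF-Y, and a cell cycle homology region (CHR), the element bound by the MuvB complexes. The values below concern the accessibility of these genes, not the amount or the action of their proteins on chromosomes.

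Each library had its own list of called peaks, with 150577 to 199042 peaks with DMSO and 170682 to 252752 with 3MB-PP1. The read depth is unknown, since the lists give no read totals. Peaks were narrower in the 3MB-PP1 lists in general: the median length of a peak was 355 to 409 bp with DMSO and 269 to 324 bp with 3MB-PP1. Chromosome X held 0.868% to 0.933% of the peaks of replicates 1 and 3 and 0.595% to 0.694% of those of replicates 2 and 4, whatever the treatment, so differences are also given for the odd numbers (1 and 3) and the even numbers (2 and 4) alone. Of the markers of epithelial and mesenchymal lines, 3 of 5 (KRT8, CDH2 and VIM) had a called start site in all 8 lists, and KRT18 and KRT19 did not. Of the markers of retinal pigment epithelium 2 of 7 (OTX2 and MITF) had one, and RPE65, BEST1, PMEL, TYR and RLBP1 did not. None of 4 blood markers did (0 of 4). A marker with no start site in the reference of promoters would also be counted as not called.

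Promoters of 4 of the genes are shown, since their start sites lay in regions called in all 8 lists. They are those of TOP2A and MKI67, on which the comparison turns, of NCAPD2, whose own start site must be kept apart from a neighbour, and of NCAPG, the condensin gene with the highest start-site peaks. They are the 250 bases before the annotated start, 5′ to 3′ on the strand of the gene, from RefSeq on GRCh38.p14. Capitals mark the CCAAT box (CCAAT, or ATTGG where it lies on the other strand) and the CHR (TTTGAA or TTCGAA, or TTCAAA on the other strand). TOP2A lies at chr17:40417897-40418146 (minus strand), MKI67 at chr10:128126424-128126673 (minus strand), NCAPD2 at chr12:6493852-6494101 (plus strand) and NCAPG at chr4:17810729-17810978 (plus strand).
TOP2A: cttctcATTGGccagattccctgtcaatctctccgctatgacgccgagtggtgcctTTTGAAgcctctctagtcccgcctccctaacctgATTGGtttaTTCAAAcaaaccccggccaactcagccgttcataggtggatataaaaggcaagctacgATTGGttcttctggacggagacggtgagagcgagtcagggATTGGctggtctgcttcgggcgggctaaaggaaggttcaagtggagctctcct
MKI67: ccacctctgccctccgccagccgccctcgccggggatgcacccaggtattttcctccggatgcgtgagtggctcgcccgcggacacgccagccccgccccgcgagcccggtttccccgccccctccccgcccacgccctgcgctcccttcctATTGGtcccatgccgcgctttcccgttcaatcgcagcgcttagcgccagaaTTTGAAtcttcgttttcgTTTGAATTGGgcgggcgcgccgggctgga
NCAPD2: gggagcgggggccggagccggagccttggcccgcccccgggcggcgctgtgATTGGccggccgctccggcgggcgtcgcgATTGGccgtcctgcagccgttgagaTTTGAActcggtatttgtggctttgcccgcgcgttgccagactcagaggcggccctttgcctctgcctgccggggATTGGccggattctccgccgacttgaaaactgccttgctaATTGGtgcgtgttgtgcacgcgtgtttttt
NCAPG: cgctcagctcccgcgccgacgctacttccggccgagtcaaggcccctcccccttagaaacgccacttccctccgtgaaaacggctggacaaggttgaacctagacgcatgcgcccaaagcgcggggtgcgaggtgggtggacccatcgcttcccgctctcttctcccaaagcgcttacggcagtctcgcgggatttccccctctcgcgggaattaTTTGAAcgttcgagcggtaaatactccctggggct

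The promoter of TOP2A held 4 CCAAT boxes, all on the other strand, at 244, 160, 93 and 53 bases before the start, and 2 CHR matches at 194 and 151 bases. In MKI67 the pair of CCAAT boxes began 98 and 24 bases before the start and the CHR matches 47 and 29 bases before it, and the last match shares 1 base with the last CCAAT box. NCAPD2 held 4 CCAAT boxes and 1 CHR match, and NCAPG held 1 CHR match, 35 bases before the start, and 0 CCAAT boxes. The promoter table holds 12 promoters of 9 of the 10 genes, each of 300 bases (250 before and 50 after the start), and NCAPH2 had no entry. On either strand, a CHR match was in promoters of 8 of these 9 genes (all but NCAPH), or 8 of 12 promoters, against 13.7% of all 22132 promoters in the table. A CCAAT box was in 5 of 12 (MKI67, NCAPD2, NCAPD3, NCAPH and TOP2A), against 34.6% of all, and the E2F letters TTTCCCGC, TTTGGCGC or TTTCGCGC were in 1 of 12 (NCAPD3), against 3.44%. These matches describe letters in a window and not sites of binding.

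To compare the genes, peaks of the 8 lists that overlapped by at least 1 bp were merged into regions, and all regions within a gene and 5 kb either side were taken. The 10 windows held 100 regions, of which 16 had a call in all 8 lists and 43 in 1 list. Over the windows of all protein-coding genes, 7.60% of 301684 regions had a call in all 8 lists and 51.9% in 1 list. The windows of the set were not rich in regions, with a median of 1.64 per 10 kb against 2.29 over all genes. TOP2A and NCAPG each had 2 regions, 1 of them called in all 8 lists, whereas NCAPD3 had 25 and NCAPG2 had 23, of which 1 and 5 were called in all 8. All 10 genes had at least 1 region called in every list, as had 15109 of the 19974 genes.

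The region of each gene that was called in all lists and had the highest mean pileup percentile is called its main region below. Its position in a list is given as a top share, which is the rank by pileup of its highest peak divided by the number of peaks in the list, in percent, so a smaller share is a higher rank. The pileup is the height of fragment coverage in a peak and not a sum over its length. Every main region of the set had a lower pileup in the 3MB-PP1 library of each same-numbered pair, except TOP2A in replicate 2. There it was 101 with DMSO and 110 with 3MB-PP1. This comparison was not made over all genes, and pairing by number is not established, so it shows nothing particular to the set. Pileup has no stated scaling between libraries, so its rank within a list is used. With DMSO, NCAPG had the smallest mean share of the set at its own start site, 0.0930% ± 0.0279 (SD, n = 4). NCAPD3 (0.120% ± 0.0256), NCAPH2 (0.149% ± 0.0243) and TOP2A (0.254% ± 0.134) followed, and each overlapped the gene before it in that order. The start site of NCAPD2 (0.626% ± 0.132) lay apart from TOP2A, and that of NCAPG2 (0.879% ± 0.121) overlapped it. SMC2 (2.46% ± 0.655), SMC4 (2.84% ± 0.629), MKI67 (4.66% ± 1.14) and NCAPH (5.48% ± 2.33) had lower ranks, apart from NCAPG2 and overlapping one another in turn. NCAPG and NCAPH, both of condensin I, thus stood at the ends of the order by mean share.

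With 3MB-PP1, TOP2A (0.0618% ± 0.0581, SD, n = 4) came before NCAPG (0.107% ± 0.0496) and had the smallest mean share of the start sites, but its range overlapped that of NCAPG. NCAPH2 (0.119% ± 0.0395) and NCAPD3 (0.149% ± 0.0363) followed, again with overlap. The start site of NCAPD2 (0.689% ± 0.261) lay apart from NCAPD3, and SMC2 (2.80% ± 0.381) apart from NCAPG2 (1.02% ± 0.299). SMC4 (3.25% ± 1.25), MKI67 (3.89% ± 0.892) and NCAPH (6.38% ± 4.03) were last, in the same places as with DMSO. The authors' -log10 q gives the corrected significance of a peak against its own background and is not a height. The highest -log10 q in a main region reached its largest value of the set in NCAPG with DMSO (53.6 to 106). With 3MB-PP1 it did so in TOP2A (34.5 to 82.7). Its lowest values were in MKI67 (4.67 to 12.9 with DMSO and 5.14 to 8.07 with 3MB-PP1) and NCAPH (5.40 to 22.2 and 4.94 to 12.1).

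**Figure D1:**
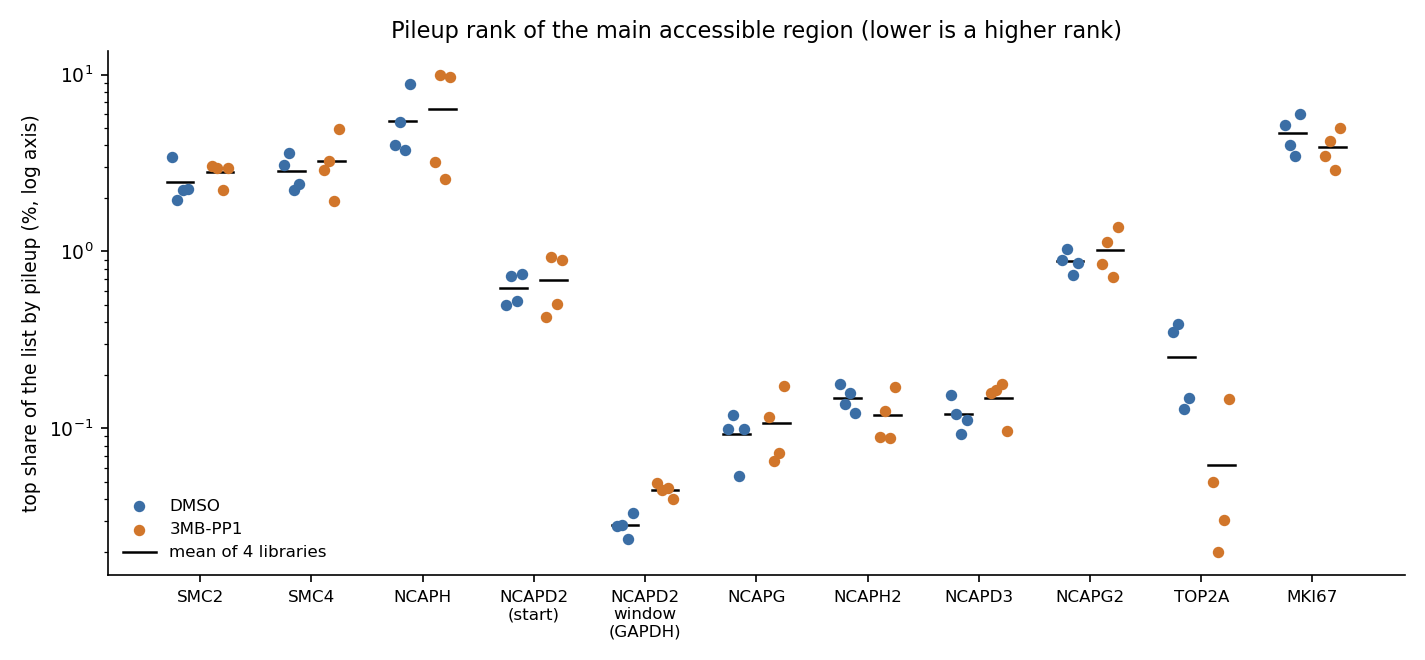
Top share of the main region of each gene in each library by pileup, in percent on a log axis, where lower points are higher ranks, with DMSO in blue, 3MB-PP1 in orange and bars for the mean of 4 libraries. TOP2A shares run from 0.128% to 0.388% with DMSO and from 0.0201% to 0.147% with 3MB-PP1, and MKI67 and NCAPH lie above 2% throughout.

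The question of the study is whether mitotic chromosomes differ in accessibility when Plk1 is inhibited. For the set, 0 of 10 genes passed an adjusted p of 0.05 in limma for the length of the main region or for its rank, over 15109 genes tested. Over all genes tested, 0.238% were called shorter and 0.0% longer with 3MB-PP1, and 0.0927% were called higher and 0.00662% lower in rank. At an unadjusted p under 0.05 in limma, 1 of 10 (MKI67) differed in length and 2 of 10 (TOP2A and the region taken for NCAPD2) in rank. Of all 15109 genes tested, 3058 did so in length and 1659 in rank. In 8 of 10 genes the mean log2 length was lower after 3MB-PP1 and in 2 higher, with a median log2 difference of -0.10, beside -0.18 over all genes, 86.8% of which were lower. With each library's median log2 length subtracted, 1 of 10 (MKI67) was lower and 9 were higher, with a median of 0.13 beside 0.04 over all genes. The rank difference was negative in 3 of 10 and positive in 7, with a median log2 difference of top share of 0.15 beside -0.06 over all genes. The 3MB-PP1 lists were longer in 3 of 4 same-numbered pairs, and with the rank itself in place of the share the medians were 0.40 and 0.19, with 12 of all genes called higher and 10 lower in rank by limma, against 14 and 1. In length, 2 of 10 (MKI67 and NCAPG2) had no overlap between the groups and were lower with 3MB-PP1, where 12.8% of all genes did, and 0 of 10 were higher without overlap, where 0.179% did. In rank, 0 of 10 were higher without overlap, where 4.02% of all genes were, and 1 of 10 (the region taken for NCAPD2) was lower, where 1.54% were. The p-values measure the spread between these libraries, which the series describes as 4 biological replicates per group.

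**Figure D2:**
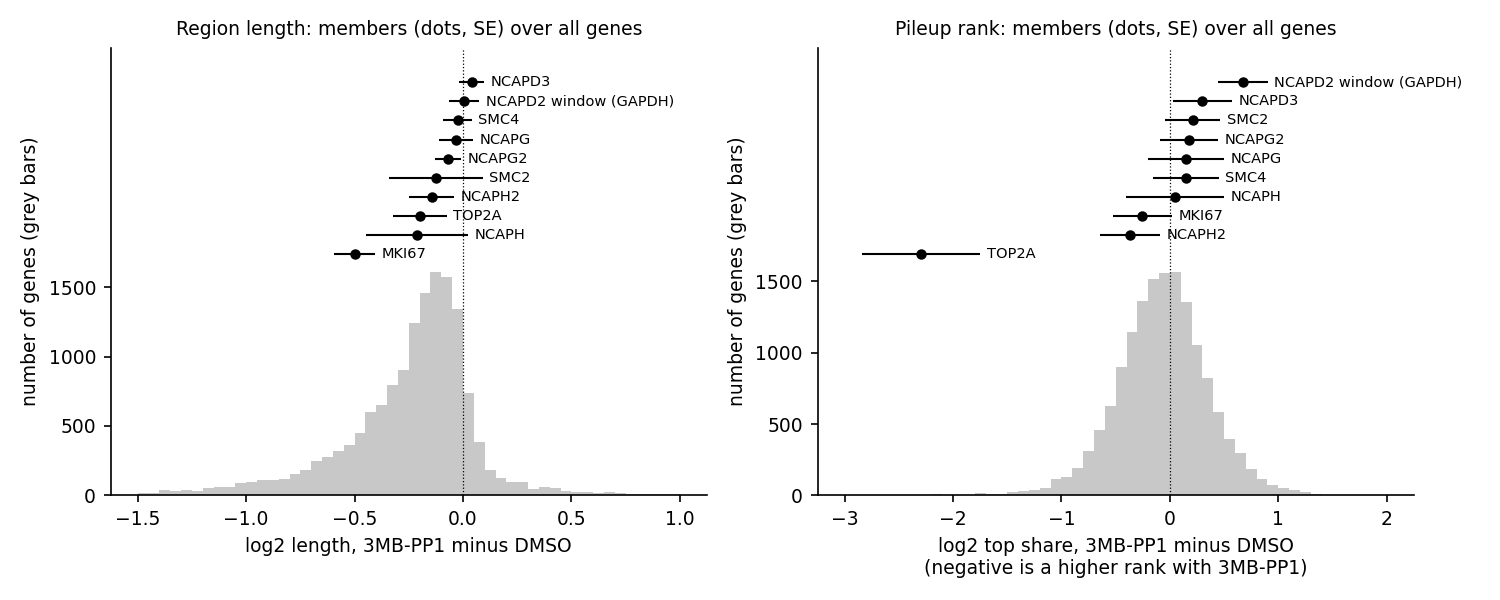
Log2 difference (3MB-PP1 minus DMSO) in main region length on the left and in top share on the right, for the 10 genes as dots with SE and for all 15109 genes tested as grey bars that count genes. MKI67 at -0.50 is the leftmost dot in length and TOP2A at -2.29 in top share, and the other genes lie nearer to 0.

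MKI67, the gene of the Ki-67 surface protein, had the longest main region of the set at its own start site with DMSO, and this region was divided in every 3MB-PP1 list. The gene spans chr10:128096659-128126423 on the minus strand, and its main region, chr10:128124370-128127650, holds the start site. Its peaks covered 2688, 3105, 3043 and 2897 bp with DMSO and 2049, 2388, 2024 and 1859 bp with 3MB-PP1, in replicates 1 to 4. The lowest DMSO library was thus above the highest 3MB-PP1 library. The means were 2933 ± 185 bp and 2080 ± 222 bp (SD, n = 4), and 371 of the genes tested (2.46%) had a longer main region than MKI67 with DMSO. The log2 difference was -0.50 (SE 0.096), with an adjusted p of 0.0739 in limma. The odd numbers alone gave -0.49 and the even numbers -0.51. With each library's median log2 length over all main regions subtracted, it was -0.27 (limma, adjusted p = 0.30).

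The form of the MKI67 region differed more than its covered length. With DMSO each list had 1 unbroken peak, from 837, 1124, 1213 and 1175 bp upstream of the start site to 1850, 1980, 1829 and 1721 bp into the gene. With 3MB-PP1 the region held 2, 3, 2 and 2 peaks. A peak over the start site ran from 689, 613, 578 and 562 bp upstream to 804, 736, 736 and 713 bp downstream, and another began 1175, 1151, 1167 and 1410 bp into the gene. Between them lay 370, 414, 430 and 696 bp with no call, and the extra peak of replicate 2 lay upstream. The upstream edge in all 4 3MB-PP1 start-site peaks was nearer to the start than in any DMSO list. The number of peaks went from 1 in 4 of 4 DMSO lists to several in 4 of 4 3MB-PP1 lists in 1 of 10 genes of the set, where 0.695% of all genes tested did so and 0.0% went the other way. The length of the single highest peak was 1494, 1350, 1315 and 1276 bp with 3MB-PP1, and its log2 difference was -1.11 (SE 0.082, limma, adjusted p = 0.00119). By that measure MKI67 was the 1 gene of 10 called, where 1.33% of all genes were called shorter and 0.0% longer. Pileup in the highest peak of the MKI67 region was 40.5, 41.7, 51.1 and 25.5 with DMSO. With 3MB-PP1 it was 26.9, 25.1, 29.3 and 23.3, with no stated scaling between libraries. The shortest peaks in the lists were 114 to 135 bp with DMSO and 90 to 109 bp with 3MB-PP1. The part of such general differences between the lists in the division of the MKI67 region was not tested.

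**Figure D3:**
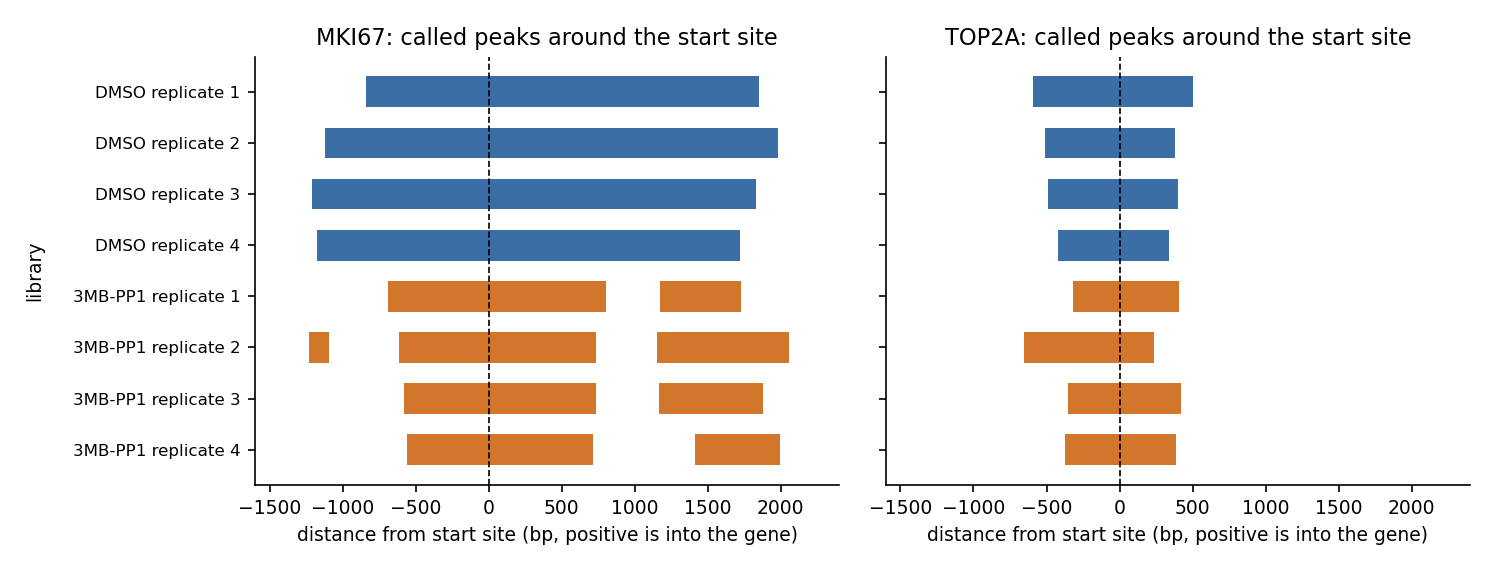
Called peaks of each library around the start sites of MKI67 and TOP2A, drawn to scale in bp from the start site (dashed line, positive values into the gene), with DMSO in blue and 3MB-PP1 in orange. The MKI67 region is 1 peak in each DMSO list and 2 or 3 peaks in each 3MB-PP1 list, and the TOP2A region is 1 peak in all 8 lists.

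The height of the MKI67 peak within its list overlapped between the groups. The top shares were 5.20%, 4.01%, 3.44% and 5.98% with DMSO and 3.49%, 4.22%, 2.90% and 4.96% with 3MB-PP1. The log2 difference in top share was -0.25 (SE 0.272, limma, adjusted p = 0.773). MKI67 also had the only region of the 100 that separated the treatments by its calls, called in 4 of 4 lists after DMSO and in none (0 of 4) after 3MB-PP1. It lies 2952 bp beyond the end of the gene, at chr10:128092673-128093707, and was called with DMSO over 560, 984, 522 and 413 bp. Of the regions in all gene windows, 0.11% were called in every DMSO list alone and 0.138% in every 3MB-PP1 list alone. With only calls that cover at least 50% of a region 0 regions of the set separated the treatments, and with lists of equal length there was also 1 of NCAPD3, at chr11:134217885-134218427. The call beyond MKI67 was weak, with -log10 q values, the authors' measure for each peak, of 1.26 to 2.32, and the lists hold only peaks past a threshold, so a missing call is not a missing signal.

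TOP2A had the largest rank difference of the set, toward a higher rank with 3MB-PP1. The gene spans chr17:40388525-40417896 on the minus strand, and its main region, chr17:40417392-40418548, holds the start site shown above. The top shares were 0.349%, 0.388%, 0.128% and 0.149% with DMSO and 0.0496%, 0.0201%, 0.0305% and 0.147% with 3MB-PP1. The peak stood at ranks 526, 613.5, 254 and 297 in the DMSO lists and at ranks 106, 41, 77 and 251 in the 3MB-PP1 lists. The pileup itself was 115, 101, 168 and 94.0 with DMSO and 96.6, 110, 116 and 65.1 with 3MB-PP1. It was higher with 3MB-PP1 only in replicate 2, and it has no stated scaling between libraries. The higher rank is thus a place among the peaks of a list, and whether the height itself differed cannot be told from these values. In each same-numbered pair the 3MB-PP1 library had the smaller share, but in replicate 4 by little, and DMSO replicate 3 lay below 3MB-PP1 replicate 4, so the groups overlapped. The mean shares were 0.254% ± 0.134 and 0.0618% ± 0.0581 (SD, n = 4), and 538 of the genes tested had a smaller mean share than TOP2A with DMSO and 144 with 3MB-PP1. The log2 difference was -2.29 (SE 0.543), with an adjusted p of 0.122 in limma. The odd numbers alone gave -2.45 and the even numbers -2.14.

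Whether TOP2A passed the threshold depended on the fit. With the replicate number as a replicate block the adjusted p was 0.0153 (limma), and TOP2A was the 1 gene of 10 called, where 2.03% of all genes tested were called higher and 0.913% lower in rank. Without 3MB-PP1 replicate 4 the log2 difference was -2.85 (limma, adjusted p = 0.0127). That fit called 138 of all 15109 genes tested higher and 6 lower in rank, the most of any fit that left out 1 library. Without DMSO replicate 1 the log2 difference was -2.08 (limma, adjusted p = 0.468), in a fit that called 2 genes higher and 0 lower in rank. With only the peaks whose -log10 q reached 5 it was -1.53 (limma, adjusted p = 0.0482), in a fit of 8 of the 10 genes and 6923 in all, whose median was 0.51. In that fit 0.332% of all genes were called higher in rank and 7.22% lower, and the lower-ranked calls of the set were NCAPD3, at 1.06 (adjusted p = 0.0382), and the region taken for NCAPD2, at 1.43 (adjusted p = 0.0211), both by limma. The length of the TOP2A peak was 1100, 892, 892 and 760 bp with DMSO and 727, 886, 778 and 765 bp with 3MB-PP1. These lengths overlapped, and their log2 difference was -0.20 (SE 0.124, limma, adjusted p = 0.365), with -0.40 for the odd and -0.00014 for the even numbers.

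**Figure D4:**
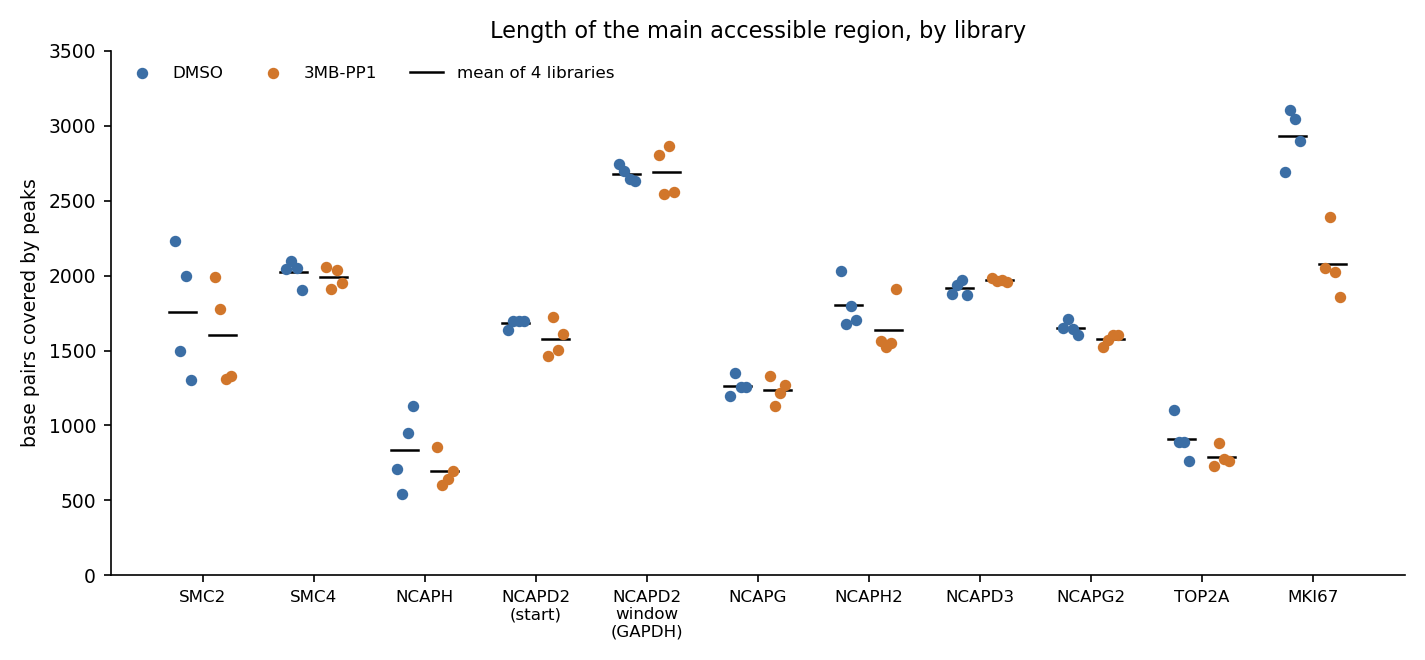
Base pairs covered by peaks in the main region of each gene in each library, with DMSO in blue, 3MB-PP1 in orange and bars for the mean of 4 libraries. The 4 MKI67 values with 3MB-PP1 (1859 to 2388 bp) lie below its DMSO values (2688 to 3105 bp), and the groups overlap in the other genes except NCAPG2.

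The ATPase core of both condensins showed no difference beyond the spread. The main region of SMC2, at chr9:104092988-104095232, covered 1302 to 2233 bp with DMSO and 1311 to 1988 bp with 3MB-PP1. Its log2 length difference was -0.12 (SE 0.216, limma, adjusted p = 0.739) and its log2 difference in top share 0.21 (SE 0.257, limma, adjusted p = 0.811). The main region of SMC4, at chr3:160398943-160401073, also holds the start of IFT80, a gene of ciliary transport, and its signal cannot be split between them. It covered 1904 to 2095 bp with DMSO and 1910 to 2057 bp with 3MB-PP1, with log2 differences of -0.02 in length (limma, adjusted p = 0.831) and 0.14 in top share (limma, adjusted p = 0.901).

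Of the condensin I subunits, NCAPH encodes the kleisin that closes the ring, and NCAPD2 and NCAPG encode the HEAT-repeat subunits. NCAPH had the largest mean top share of the set in both groups, at chr2:96335440-96336568, a region that is also the main one in the window of ITPRIPL1. Its top shares were 3.98%, 5.36%, 3.77% and 8.82% with DMSO and 3.22%, 10.0%, 2.57% and 9.72% with 3MB-PP1. In both groups replicates 1 and 3 had the smaller shares and replicates 2 and 4 the larger. The log2 difference in top share was 0.05 (SE 0.450, limma, adjusted p = 0.984) over all libraries, -0.43 for the odd and 0.52 for the even numbers. The NCAPH region covered 545 to 1129 bp with DMSO and 603 to 858 bp with 3MB-PP1 (log2 difference -0.21, limma, adjusted p = 0.590).

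NCAPG, whose region at chr4:17810130-17811594 also holds the start of DCAF16, had top shares of 0.0996%, 0.119%, 0.0536% and 0.0995% with DMSO and 0.116%, 0.0653%, 0.0728% and 0.173% with 3MB-PP1. The groups overlapped, and the log2 difference was 0.15 (SE 0.351, limma, adjusted p = 0.914). Its length was 1265 ± 62.6 bp and 1238 ± 85.2 bp (SD, n = 4), a log2 difference of -0.03 (limma, adjusted p = 0.811).

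For NCAPD2, at chr12:6494102-6531955, the rule took a region that is not its own. The region at chr12:6532316-6535182 lies 361 bp beyond the end of the gene and is also the main region of GAPDH, a glycolytic gene expressed in nearly all cells, and of IFFO1. Its top shares were 0.0279%, 0.0284%, 0.0237% and 0.0332% with DMSO and 0.0492%, 0.0447%, 0.0459% and 0.0398% with 3MB-PP1, so every 3MB-PP1 list ranked it lower. The log2 difference was 0.67 (SE 0.230), with an adjusted p of 0.306 in limma, and the odd and even numbers alone gave 0.88 and 0.46. The start site of NCAPD2 itself lies in the region chr12:6492783-6494590. That region also holds the start of MRPL51, and its signal cannot be split between them. There the top shares were 0.499%, 0.729%, 0.523% and 0.750% with DMSO and 0.426%, 0.936%, 0.504% and 0.890% with 3MB-PP1, and the groups overlapped, with a log2 difference of 0.08 (SE 0.309, limma, adjusted p = 0.956). The lengths at that start site were 1637, 1696, 1700 and 1700 bp with DMSO and 1461, 1721, 1504 and 1609 bp with 3MB-PP1 (log2 difference -0.10, SE 0.071, limma, adjusted p = 0.408).

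Of the condensin II subunits, NCAPH2 encodes the kleisin, and NCAPD3 and NCAPG2 encode the HEAT-repeat subunits. The main region of NCAPH2, at chr22:50506682-50508785, holds the annotated start of LMF2 and spans one end of NCAPH2. Its top share was 0.149% ± 0.0243 with DMSO and 0.119% ± 0.0395 with 3MB-PP1 (SD, n = 4), with a log2 difference of -0.36 over all (limma, adjusted p = 0.667), -0.91 for the odd and 0.19 for the even numbers. Its length was 1804 ± 161 bp and 1636 ± 183 bp (SD, n = 4; log2 difference -0.14, limma, adjusted p = 0.425). Another region called in all 8 lists, chr22:50525140-50527167, lies 360 bp beyond NCAPH2, with top shares of 0.175% to 0.276% with DMSO and 0.166% to 0.230% with 3MB-PP1.

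NCAPD3 had the smallest spread in length with 3MB-PP1, an SD of 11.8 bp. Its main region, at chr11:134223558-134225707, also holds the start of VPS26B, a retromer gene, and covered 1880, 1937, 1973 and 1873 bp with DMSO and 1985, 1963, 1971 and 1958 bp with 3MB-PP1 (log2 difference 0.04, SE 0.058, limma, adjusted p = 0.685). Its top share was 0.120% ± 0.0256 with DMSO and 0.149% ± 0.0363 with 3MB-PP1 (SD, n = 4; log2 difference 0.30, limma, adjusted p = 0.727).

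NCAPG2 had a main region at chr7:158703845-158705574 that covered 1652, 1709, 1641 and 1604 bp with DMSO and 1521, 1572, 1601 and 1602 bp with 3MB-PP1. There was no overlap, although the nearest values differed by 2 bp, and the log2 difference was -0.07 (SE 0.060, limma, adjusted p = 0.497). With library medians subtracted it was 0.16 (limma, adjusted p = 0.367). Its log2 difference in top share was 0.18 (limma, adjusted p = 0.850). NCAPG2 was the gene of the set with further regions inside its body called in all 8 lists, 4 in number, with top shares of 7.12% to 98.4% over the lists and -log10 q values of 1.14 to 6.77. They covered 170 to 2157 bp with DMSO and 212 to 1473 bp with 3MB-PP1.

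The whole windows, main region included, differed in how many peaks they held. In the window of NCAPD3 there were 4 to 12 peaks with DMSO and 8 to 14 with 3MB-PP1, which covered 2649 to 5072 bp and 3492 to 5695 bp. The window of NCAPG2 held 10 to 15 and 12 to 14 peaks over 6407 to 10241 bp and 5151 to 7540 bp. At the other end, NCAPG and TOP2A had 1 peak in each DMSO list, that of the main region, and 1 or 2 in each 3MB-PP1 list. The window of MKI67 held 2 or 3 peaks with DMSO and 3 to 6 with 3MB-PP1, which include the parts of its divided main region. Over the 10 windows together, a DMSO list had 30 to 46 peaks and a 3MB-PP1 list 47 to 50. The lists themselves were of different length, as given above, and the part of list length in these counts was not tested.

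A list of 20 other genes of mitotic chromosome structure (among them TOP2B, KIF4A, NCL, FBL, AURKB, INCENP and CDK1) was set beside these. Of the 19 tested, 0 passed an adjusted p of 0.05 in limma in length and 0 in rank. An unadjusted p under 0.05 in limma was reached by 3 and 2, beside 3058 and 1659 of all 15109 genes tested. M18BP1 had no region in all 8 lists. Their length was lower with 3MB-PP1 in 16 and higher in 3, with a range of log2 differences of -0.71 to 0.07. The median was -0.15, beside -0.18 over all genes, 86.8% of which were lower. Their log2 difference in top share was negative in 10 and positive in 9, with a median of -0.05 beside -0.06 over all genes. Without overlap between the groups, 2 of 19 were shorter with 3MB-PP1 and 2 of 19 higher in rank, beside the 12.8% and 4.02% of all genes tested given above.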

How the data were processed

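ATAC-seq peak lists of 8 libraries, 4 per treatment, were grouped and numbered by their titles. Peaks had been called per library with MACS2 on hg38, per the submitters' processing notes; the aligner, read filters, any shift for the transposase and any version are not given in the sources used here. From the values, each deposited list gives a start, an end, a length, a pileup (signal, the height of fragment coverage, with no stated scaling between libraries), a -log10 p, a fold enrichment (ratio to background) and a -log10 q per peak. These are the authors' values, used to rank, filter or describe peaks within a list; the deposited fold was not used. The largest q was 0.1.

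Genes came from a RefSeq table of GRCh38.p14 (protein-coding, chromosomes 1 to 22 and X). Peaks on other sequences were left out before peaks were counted, ranked or merged. The main region of a gene was the one called in 8 of 8 lists within 5 kb with the highest mean pileup percentile. Log2 length and log2 top share were tested with limma 3.58.1 (R 4.3.3) over 15109 genes, without covariates, Benjamini-Hochberg adjusted over all of them, at 0.05; the code was tested on simulated data. Python 3.11.15 with pandas 2.3.3 and numpy 2.4.6 built the tables. Same-numbered libraries correlated in rank (r = 0.470, 0.171, 0.287 and 0.429 over genes, from the data and not from the labels). DMSO replicates 2 and 3 and 3MB-PP1 replicate 2 correlated better with another number, so pairing by number is not established. The fit with a replicate block is given where it changed a call. Alternatives were a -log10 q of at least 5, a 1 kb window, merging within 500 bp, the single highest peak, median-centred lengths, rank by -log10 p, absolute rank, odd or even replicates, leaving out each library, the replicate block, and other rules for calls by treatment. The region at the start site was added after seeing the data. All 10 genes and the other regions called in all lists or by treatment are named. Genes and lists were chosen with earlier results of these data known.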

Additional observations from a re-analysis of the deposited data

Results flagged for a closer look

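In 3 of the 44 groups of 4 values examined (11 regions, length and top share, each treatment), 1 library lay far from the other 3, by a criterion that chance meets in about 1 in 20 groups. The start-site region of NCAPD2 covered 1637 bp in DMSO replicate 1 and 1696 to 1700 bp in the other DMSO libraries. The main region of NCAPH2 covered 1909 bp in replicate 4 with 3MB-PP1, against 1522 to 1561 bp in replicates 1 to 3. The top share of SMC2 was 2.23% in replicate 3 with 3MB-PP1, against 2.96% to 3.04% in replicates 1, 2 and 4.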

How the results depend on the processing

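The counts of called genes moved with most settings and the cause was not tested. Of all genes, 36 were called in length, all shorter, and 22 with peaks within 500 bp merged, 250 with a -log10 q of at least 5, 201 by the single highest peak, 98 with a 1 kb window, 68 at the start site, and 0 with the replicate block, with median-centred lengths, in odd-numbered or in even-numbered replicates; leaving out 1 library gave 0 to 286, the most without DMSO replicate 4. In rank 15 were called, and 7 by -log10 p, 523 with a -log10 q of at least 5, 445 with the replicate block, 721 in odd-numbered and 5 in even-numbered replicates; leaving out 1 library gave 2 to 144, the most without 3MB-PP1 replicate 4. The odd-numbered rank fit gave every gene named here the same SE of 0.37, so nothing is rested on its p-values or on the 721. In length the same-numbered libraries correlated more weakly than in rank (r = 0.112, 0.0237, 0.0484 and 0.146), and in neither measure did every library correlate best with its own number. Regions called by treatment in the windows of the set went from 1 to 4 (3 of 4 lists against at most 1), 2 (lists of equal length) and 0 (a call needing at least 50% of the region, or a -log10 q of at least 5), and in all windows from 750 to 16411 and 150 for the first and last of these.

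Among the 10 genes, 147 values in length and 145 in rank kept their direction and side of the threshold under an alternative, 19 and 16 turned sign, and 1 and 6 passed the threshold, the 6 including TOP2A in that odd-numbered fit. In length, signs turned with median-centred values for SMC2 (0.10), SMC4 (0.20), NCAPH (0.014), NCAPG (0.19), NCAPH2 (0.082), NCAPG2 (0.16) and TOP2A (0.027), in even numbers for SMC2 (0.14), NCAPD2 (-0.063) and NCAPH2 (0.011), in odd numbers for SMC4 (0.0003) and NCAPG (0.054), and at the start site for NCAPD2 (-0.10). Leaving out 1 library gave -0.26 to 0.0023 for SMC2, -0.025 to 0.032 for NCAPD2, -0.069 to 0.0094 for NCAPG and -0.57 to -0.45 for MKI67. In rank, signs turned by -log10 p for SMC4 (-0.25) and NCAPH (-0.10), in even numbers for NCAPG (-0.035) and NCAPH2 (0.19), in odd numbers for SMC2 (-0.081), SMC4 (-0.15), NCAPH (-0.43) and NCAPG2 (-0.059), and with a -log10 q of at least 5 for NCAPH2 (0.40). Leaving out 1 library gave -0.081 to 0.37 for SMC4, -0.26 to 0.40 for NCAPH, -0.12 to 0.35 for NCAPG and -2.85 to -1.90 for TOP2A. Without a change of sign it moved the length differences of SMC4 (-0.054 to -0.0056), NCAPH (-0.40 to -0.049), NCAPH2 (-0.22 to -0.085) and TOP2A (-0.28 to -0.10), and the rank differences of SMC2 (0.11 to 0.38), NCAPH2 (-0.56 to -0.24), NCAPD3 (0.19 to 0.50), NCAPG2 (0.014 to 0.33) and MKI67 (-0.39 to -0.12), by over 1.5 times. MKI67 and NCAPH could not be fitted with a -log10 q of at least 5, and NCAPH2 had no start site in the promoter table. Read depth is unknown, so differences in depth between libraries were not tested.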
